A study of Mus musculus with 14 samples.

Results

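The 10 genes described here encode the replication stress checkpoint: the kinase Atr and its partner Atrip, the clamp loader Rad17, the 9-1-1 clamp subunits Rad9a, Rad1 and Hus1, the activators Topbp1 and Etaa1, the mediator Clspn and the effector kinase Chek1. They were taken by gene symbol, because CDK18 is known to act in replication stress signalling, by a rule that uses no measured value, although earlier results of these data were known when they were proposed. They are 10 of the 77981 genes in the count table, and all 10 were among the 13997 genes kept by a filter on low counts. Their transcripts were measured in 14 mouse liver tumours by sequencing of mRNA 3′ ends.

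Every tumour had been started by injecting plasmids for c-Myc and β-catenin into the circulation of the mouse under pressure, which delivers DNA to hepatocytes. The 4 DKO tumours carried a Cdk18 knockout together with a knockout of Cdk16, the 5 CDK18KO tumours carried the Cdk18 knockout, and the 5 WT tumours were wild type for both kinases. Cdk16 was removed from tumours that had already formed, in mice with Cdk16 fl/fl alleles and the tamoxifen-activated recombinase Cre-ERT2, by tamoxifen at 75 mg/kg on 5 days, and tumours were taken 10 days after the last dose. The labels list this dosing alike for every sample, with an endpoint of 15 mm in diameter and 8 weeks. Control mice with Cre-ERT2 received tamoxifen too, but the labels do not say whether the CDK18KO and WT tumours analysed here came from such mice. The promoter that drives Cre-ERT2, the design of the Cdk18 allele, and the sex and age of the mice are not stated in the labels. Because the samples are pieces of whole tumour, a lower level of a transcript cannot be told apart from fewer cells that make it.

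Stalled replication forks expose single-stranded DNA coated with replication protein A (RPA), and Atrip brings Atr to it. Rad17 loads the ring of Rad9, Rad1 and Hus1 next to the stall, the ring positions Topbp1, and Topbp1 switches Atr on, while Etaa1 binds RPA and activates Atr by a separate route. Active Atr phosphorylates Chk1, the product of Chek1, with Claspin (Clspn) as the adaptor, and Chk1 then holds back origin firing and mitotic entry by restraining the Cdc25 phosphatases. This control is exerted mainly by phosphorylation, which mRNA counts do not measure, and tumours driven by Myc are known to lean on it heavily. CDK16 and CDK18 are kinases of the PCTAIRE family, and CDK18 has been linked in human cells to Atr signalling at stressed forks.

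Total counts ran between 1442417 and 6068209 per library, so the lowest member, Rad9a, rested on as few as 5 counts in a library, and the member with the most counts, Topbp1, on at least 174. Hepatocyte markers were present, at a summed level of 1283 to 15302 CPM (counts per 1000000 counts of a library) in DKO tumours, 1065 to 9021 CPM in CDK18KO tumours and 93.4 to 3160 CPM in WT tumours, and Alb was above 0 in all 14 libraries. Summed neutrophil markers stood at 347 to 493 CPM in DKO tumours, 4.97 to 88.0 CPM in CDK18KO tumours and 40.2 to 270 CPM in WT tumours, while T and NK cell markers were at or below 7.14 CPM in every library. Summed B and plasma cell markers stood at 33.3 to 127 CPM in DKO tumours, 1.321 to 8.08 CPM in CDK18KO tumours and 2.22 to 9.26 CPM in WT tumours, and erythroid markers at 1184 to 6484 CPM in DKO tumours, 376 to 1301 CPM in CDK18KO tumours and 372 to 1982 CPM in WT tumours. The 4 Y-linked genes summed to at most 2.78 CPM in every DKO tumour, to 348 CPM in CDK18KO 1 and at most 7.41 CPM in the other CDK18KO tumours, and to 204 CPM in WT 3, 788 CPM in WT 5 and 3.85 to 33.0 CPM in the other WT tumours. Cholangiocyte markers summed to 143 to 549 CPM in DKO, 22.1 to 298 CPM in CDK18KO and 162 to 375 CPM in WT tumours. Stellate and fibroblast markers summed to 457 to 1185 CPM in DKO, 45.3 to 879 in CDK18KO and 429 to 1204 in WT tumours. The part of cell composition in the values of the 10 genes was not tested. The targeted genes did not separate the groups without overlap: Cdk18 averaged 1.90 ± 1.51 CPM in DKO tumours, 1.98 ± 1.06 CPM in CDK18KO tumours and 4.76 ± 3.58 CPM in WT tumours, and Cdk16 averaged 30.8 ± 15.4 CPM in DKO tumours, 40.6 ± 14.3 CPM in CDK18KO tumours and 49.1 ± 7.32 CPM in WT tumours (SD, n = 4, 5 and 5). Counts of 3′ ends read transcripts from the end of the gene, and the labels do not say whether the deleted exons lie in the counted part, so the genotypes are not checked by these values.

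Among the 10 genes, Clspn and Chek1 stood lowest in DKO tumours relative to both other genotypes. Every one of the 10 had a lower fitted level in DKO than in WT tumours. That sign turned for 7 of them under a scaling to replication and mitosis genes that moved the median of all genes by 0.70. All 10 stayed below that median, as a scaling moves each gene and the median nearly together. None of these differences passed the test across all genes, an edgeR quasi-likelihood test with Benjamini-Hochberg adjustment, at an adjusted p of 0.05. For CDK18KO against WT tumours the log2 fold changes of the 10 lay between −0.38 and 0.08. The genes are taken in the order in which the signal passes through their products, and levels are CPM with TMM scaling (trimmed mean of M values, which assumes that most genes do not differ between libraries), given in replicate order, with a library named by its group and number (DKO 1).

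**Figure D1:**
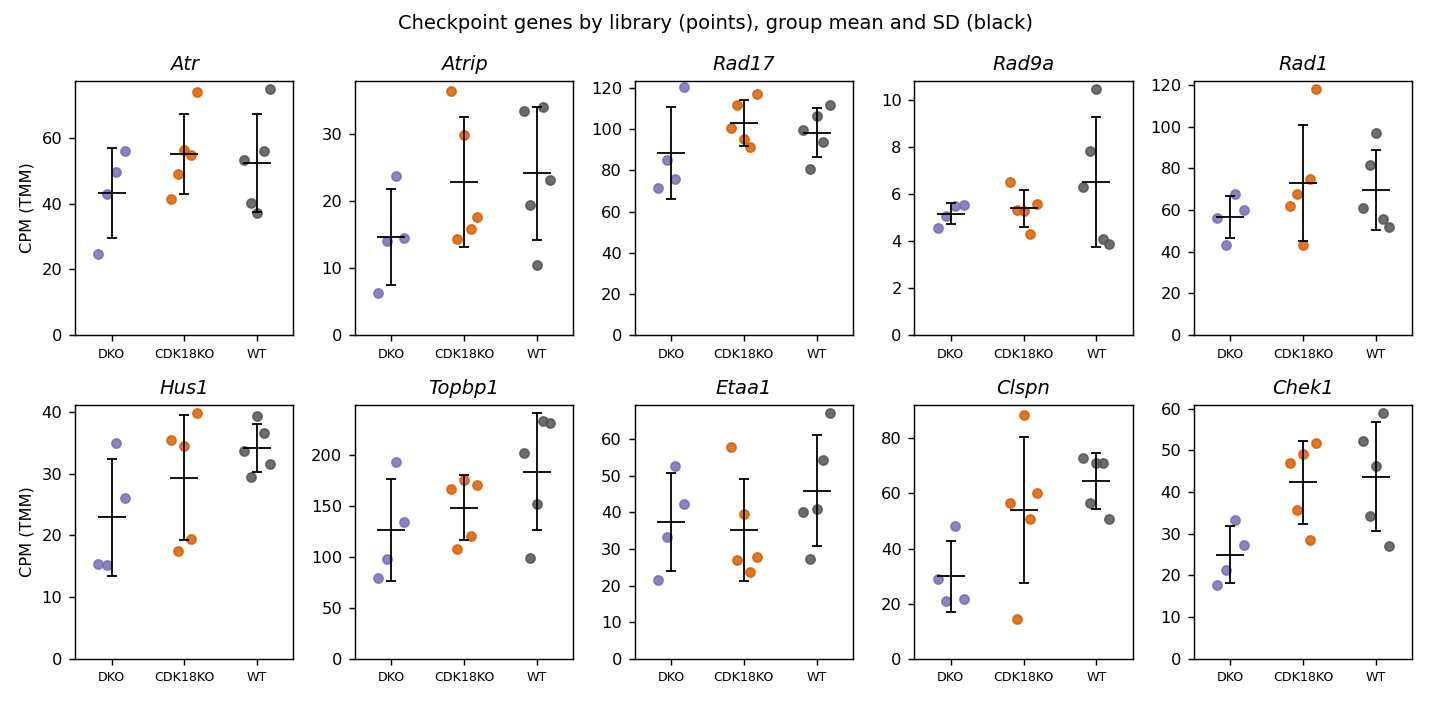
CPM (TMM scaling) of each of the 10 genes in every library, 1 panel a gene, with 4 DKO, 5 CDK18KO and 5 WT libraries from left to right and bars for the group mean ± SD. Clspn is the panel in which the DKO points, 20.8 to 48.2 CPM, all lie under the WT points, 50.9 to 73.0 CPM.

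The kinase gene Atr lies on chromosome 9 (GRCm38 chr9:95857597-95951781, plus strand). It was measured at 24.6, 42.8, 49.5 and 56.1 CPM in DKO tumours, at 41.3, 48.9, 56.2, 54.8 and 74.1 CPM in CDK18KO tumours and at 53.4, 40.3, 37.3, 56.1 and 74.8 CPM in WT tumours. The 3 groups overlapped widely, and DKO 1 alone lay outside the range of the other genotypes. The log2 fold change of Atr was −0.27 (95% interval −0.91 to 0.36) for DKO against WT, −0.35 (−0.99 to 0.29) for DKO against CDK18KO and 0.08 (−0.52 to 0.67) for CDK18KO against WT. All 3 intervals include 0, and those of the DKO comparisons reach further below it than above.

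Atrip, which carries Atr to RPA-coated DNA, lies at GRCm38 chr9:109057933-109074124 on the minus strand. Its level was 6.29, 14.1, 23.6 and 14.4 CPM in DKO tumours, 36.3, 14.4, 29.8, 15.9 and 17.6 CPM in CDK18KO tumours and 33.4, 19.4, 10.5, 34.0 and 23.1 CPM in WT tumours. Single tumours of 1 genotype differed from each other by more than the groups did. On the log2 scale the fold change was −0.72 (95% interval −1.68 to 0.24) for DKO against WT, −0.64 (−1.61 to 0.32) for DKO against CDK18KO and −0.07 (−0.96 to 0.81) for CDK18KO against WT. In the GENCODE M21 annotation the exonuclease gene Trex1 ends at the same base as Atrip on the same strand and overlaps it by 1802 bases. Trex1 had 0 counts in every library and Atrip had 22 to 141 counts. Reads in the shared stretch may have been given to Atrip or left out of the counts, and the sources used here do not say which. The Atrip values are uncertain for that reason.

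Rad17, the loader that opens the clamp, varied least of the 10 genes, with a ratio of 1.69 between its highest and lowest library. It was at 71.4, 85.1, 75.7 and 121 CPM in DKO tumours, at 100, 112, 95.03, 91.2 and 117 CPM in CDK18KO tumours and at 99.4, 80.6, 106, 93.6 and 112 CPM in WT tumours. The DKO group held both the lowest and the highest Rad17 level of all 14 libraries. Its log2 fold change was −0.16 (95% interval −0.61 to 0.30) for DKO against WT, −0.23 (−0.68 to 0.23) for DKO against CDK18KO and 0.07 (−0.36 to 0.50) for CDK18KO against WT.

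The clamp subunit Rad9a had between 5 and 57 counts in a library. Its levels were 4.57, 5.07, 5.50 and 5.56 CPM in DKO tumours, 6.52, 5.32, 5.28, 4.29 and 5.56 CPM in CDK18KO tumours and 6.30, 7.83, 10.5, 4.10 and 3.86 CPM in WT tumours. The WT values surrounded all 9 others. The log2 fold change of Rad9a was −0.35 (95% interval −1.15 to 0.46) for DKO against WT, −0.06 (−0.87 to 0.75) for DKO against CDK18KO and −0.29 (−1.04 to 0.47) for CDK18KO against WT. The 3′ end of Rad9a overlaps that of the phosphatase gene Ppp1ca, on the opposite strand, by 225 bases (GRCm38 chr19:4195196-4195420), and Ppp1ca had 171 to 1095 counts. The library kit keeps the strand, but the labels do not state the strand setting behind the deposited counts, which leaves the Rad9a counts uncertain.

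Rad1, the second ring subunit, was at 56.0, 43.4, 67.6 and 60.02 CPM in DKO tumours, at 61.8, 67.5, 43.2, 75.0 and 118 CPM in CDK18KO tumours and at 61.2, 81.7, 96.9, 55.8 and 51.7 CPM in WT tumours. Every DKO value lay within the range of the CDK18KO values, whose top, in CDK18KO 5, was the highest of the 14. In the edgeR fit its log2 fold change was −0.29 (95% interval −0.94 to 0.35) for DKO against WT, −0.36 (−1.01 to 0.28) for DKO against CDK18KO and 0.07 (−0.53 to 0.67) for CDK18KO against WT.

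Hus1, the third subunit of the ring, was at 15.4, 15.2, 35.0 and 26.1 CPM in DKO tumours, at 35.4, 17.5, 34.5, 19.5 and 39.9 CPM in CDK18KO tumours and at 33.7, 29.4, 39.3, 36.6 and 31.6 CPM in WT tumours. WT tumours kept within a narrow band, and 3 of the 4 DKO tumours and 2 of the 5 CDK18KO tumours lay below all of them. The log2 fold change of Hus1 was −0.57 (95% interval −1.28 to 0.14; edgeR adjusted p = 0.363) for DKO against WT, −0.36 (−1.07 to 0.36) for DKO against CDK18KO and −0.22 (−0.88 to 0.45) for CDK18KO against WT.

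Topbp1, which the clamp positions to switch Atr on, was at 78.9, 98.0, 193 and 134 CPM in DKO tumours, at 167, 108, 175, 120 and 171 CPM in CDK18KO tumours and at 201, 98.6, 152, 233 and 231 CPM in WT tumours. WT 1, WT 4 and WT 5 exceeded every DKO and CDK18KO tumour, and WT 2 was near the bottom of all 14. The log2 fold change was −0.54 (95% interval −1.22 to 0.14; edgeR adjusted p = 0.367) for DKO against WT, −0.23 (−0.91 to 0.44) for DKO against CDK18KO and −0.31 (−0.94 to 0.33) for CDK18KO against WT.

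Etaa1, the activator that works without the clamp, was at 21.4, 33.2, 52.8 and 42.2 CPM in DKO tumours, at 57.8, 27.1, 39.4, 23.8 and 27.8 CPM in CDK18KO tumours and at 40.0, 27.3, 41.0, 54.2 and 67.1 CPM in WT tumours. It was the member with the highest fitted level in DKO relative to CDK18KO tumours, and the only one of the 10 with a positive value there. On the log2 scale the fold change was −0.29 (95% interval −1.06 to 0.47) for DKO against WT, 0.09 (−0.68 to 0.85) for DKO against CDK18KO and −0.38 (−1.10 to 0.34) for CDK18KO against WT.

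Clspn encodes Claspin, the adaptor that holds Chk1 at Atr, and lies at GRCm38 chr4:126556935-126593903 on the plus strand. It was at 28.9, 20.8, 48.2 and 21.7 CPM in DKO tumours, at 56.5, 14.4, 88.5, 50.9 and 60.2 CPM in CDK18KO tumours and at 73.0, 56.5, 71.0, 71.2 and 50.9 CPM in WT tumours. All 4 DKO tumours lay below all 5 WT tumours, while CDK18KO 2 was the lowest of the 14 libraries and CDK18KO 3 the highest. The group means were 29.9 ± 12.7 CPM in DKO tumours (SD, n = 4), 54.1 ± 26.5 CPM in CDK18KO tumours (SD, n = 5) and 64.5 ± 10.1 CPM in WT tumours (SD, n = 5). The log2 fold change for DKO against WT was −1.10 (SE 0.41, 95% interval −1.99 to −0.22), with an unadjusted p of 0.0182 and an edgeR adjusted p of 0.174 over all genes. For DKO against CDK18KO it was −0.85 (SE 0.41, −1.73 to 0.03; edgeR adjusted p = 0.895), and for CDK18KO against WT it was −0.25 (SE 0.38, −1.07 to 0.56; edgeR adjusted p = 0.763).

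Chek1, the effector kinase gene at the end of the cascade, lies at GRCm38 chr9:36708482-36727065 on the minus strand. Its level was 17.7, 21.4, 33.3 and 27.2 CPM in DKO tumours, 46.9, 35.6, 49.1, 28.4 and 51.9 CPM in CDK18KO tumours and 52.3, 34.2, 46.3, 58.9 and 27.0 CPM in WT tumours. All 4 DKO tumours lay below the median of either other genotype, although DKO 3 and DKO 4 reached into the range of the WT tumours, the lowest of which was WT 5. The group means were 24.9 ± 6.84 CPM in DKO tumours (SD, n = 4), 42.4 ± 9.96 CPM in CDK18KO tumours (SD, n = 5) and 43.7 ± 13.0 CPM in WT tumours (SD, n = 5). In the edgeR fit its log2 fold change was −0.81 for DKO against WT (SE 0.31, 95% interval −1.47 to −0.16), with an unadjusted p of 0.0186 and an edgeR adjusted p of 0.175. For DKO against CDK18KO it was −0.77 (SE 0.31, −1.42 to −0.11), with an unadjusted p of 0.0252 and an edgeR adjusted p of 0.741. For CDK18KO against WT it was −0.05 (SE 0.28, −0.65 to 0.56; edgeR adjusted p = 0.946).

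**Figure D2:**
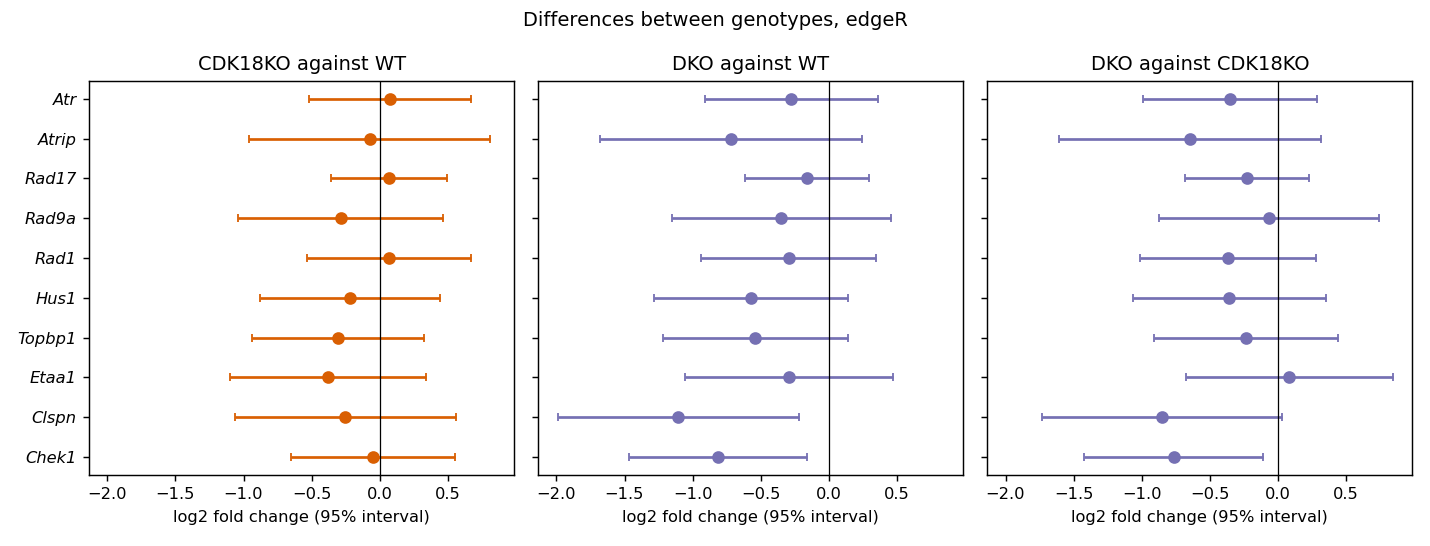
Log2 fold changes of the 10 genes with 95% intervals from the edgeR fit, for each of the 3 comparisons. The intervals of Clspn and Chek1 lie below 0 in DKO against WT and that of Chek1 also in DKO against CDK18KO, before any adjustment for the number of genes tested.

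The promoters of Clspn, Chek1 and Topbp1 are shown because they hold words of the kind bound by factors of the E2F family, which drive the G1 to S transition and are known regulators of checkpoint genes. RefSeq promoters (GRCm38.p6, 250 bases before to 50 bases after the start) were available for 9 of the 10 genes, as 10 sequences, and Rad9a was not among them. Each was searched on both strands for the 7-letter E2F word TTCCCGC, the variant TTCGCGC, the variant TTGCCGC and the variant TTGGCGC, a word length settled after matches had been looked at. Capitals mark the matches in the 3 promoters that hold one: chr4:126556730-126557029, plus strand, for Clspn, chr9:36726609-36726908, minus strand, for Chek1 and chr9:103305077-103305376, plus strand, for Topbp1, each written 5′ to 3′ along the gene.
Clspn: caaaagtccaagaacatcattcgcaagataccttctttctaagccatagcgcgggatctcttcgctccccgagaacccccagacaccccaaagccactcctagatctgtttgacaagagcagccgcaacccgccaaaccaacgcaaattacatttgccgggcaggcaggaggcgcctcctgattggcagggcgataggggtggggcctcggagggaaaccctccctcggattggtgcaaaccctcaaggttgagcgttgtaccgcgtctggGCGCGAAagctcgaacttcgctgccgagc
Chek1: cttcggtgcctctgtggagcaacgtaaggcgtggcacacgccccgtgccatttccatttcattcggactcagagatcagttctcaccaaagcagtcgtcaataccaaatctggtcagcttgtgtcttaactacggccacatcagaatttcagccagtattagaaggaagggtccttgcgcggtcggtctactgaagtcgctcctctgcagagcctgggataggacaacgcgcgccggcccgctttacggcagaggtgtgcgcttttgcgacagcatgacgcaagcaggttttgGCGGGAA
Topbp1: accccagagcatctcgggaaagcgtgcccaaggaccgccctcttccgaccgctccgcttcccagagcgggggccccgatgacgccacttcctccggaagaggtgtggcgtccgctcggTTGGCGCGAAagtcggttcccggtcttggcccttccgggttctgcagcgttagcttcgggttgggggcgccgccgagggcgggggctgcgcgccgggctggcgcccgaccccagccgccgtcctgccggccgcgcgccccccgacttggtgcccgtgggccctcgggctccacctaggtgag
The word in Clspn begins 22 bases and that in Chek1 44 bases after the start, both on the strand opposite to the gene. In Topbp1 a pair of words on opposite strands overlap, beginning 132 and 129 bases before the start. Of all 32851 promoters of that length, 9.57% held such a word. So did 15 of the 34 promoters (44.1%) of the S phase and mitosis genes used below. G and C made up 58.0% of the Clspn, 55.3% of the Chek1 and 73.7% of the Topbp1 promoter. The median over all promoters was 52.7%, and the shares holding a word were not adjusted for this. The Myc E-box CACGTG was in 0 of the 10 promoters (7.15% of all promoters), and the TCF/LEF word CTTTGAT, through which β-catenin acts, was in 0 of the 10 (3.73% of all). A match is a run of letters, and its absence in this window says nothing of binding elsewhere.

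The comparison of DKO with WT tumours sets tumours labelled as knockouts of both kinases against wild type, and whether tamoxifen and Cre-ERT2 differed too is not stated. At an adjusted p of 0.05 in edgeR, 0 of the 10 genes were called, against 0.00714% of all genes tested, which is 1 gene, and DESeq2 and limma voom, run as alternatives, also called 0 of the 10. At an unadjusted p under 0.05, Clspn and Chek1 were lower and none of the 10 was higher, against 5.22% of all genes lower, 13.7% higher and 18.9% in either direction. With libraries scaled to S phase and mitosis genes 0 of the 10 had an unadjusted p under 0.05, with 0.211 for Clspn and 0.617 for Chek1 in edgeR. The level of 1 of the 10 genes, Clspn, was lower without overlap between the groups, against 2.46% of all genes. The fitted value was below 0 for 10 of 10 genes, against 52.1% of all genes, and the median log2 fold change of the 10 was −0.44, against −0.04 over all genes. Under the scaling to S phase and mitosis genes, 3 of 10 were below 0 and 10 of 10 below the shifted median of all genes, 0.66. The number with an unadjusted p under 0.05 depended on single DKO tumours: it was 1 without DKO 1 or DKO 4, 0 without DKO 2 and 5 without DKO 3. Without the 3 libraries above 100 CPM in Y-linked genes the log2 fold change was −1.16 for Clspn and −0.96 for Chek1 (edgeR adjusted p = 0.363 for each).

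DKO and CDK18KO tumours differ, by their labels, in the knockout of Cdk16, and whether tamoxifen and Cre-ERT2 differed too is not stated. In edgeR 0 of the 10 genes were called, against 0% of all genes, and DESeq2 and limma voom also called 0 of the 10. With an unadjusted p under 0.05 Chek1 was lower and none of the 10 was higher, against 1.86% of all genes lower, 3.94% higher and 5.8% in either direction. None of the 10 was lower or higher without overlap (0.722% and 0.872% of all genes), and 9 of 10 had a value below 0, against 51.8% of all genes, with a median of −0.35 for the 10 and −0.02 for all genes. Under the scaling to S phase and mitosis genes, 3 of 10 were below 0 and 9 of 10 below the shifted median of all genes, 0.64. The unadjusted p of Chek1 was no longer under 0.05 without CDK18KO 3, CDK18KO 5, DKO 1 or DKO 2, and Clspn joined it without CDK18KO 2 or DKO 3. The comparison uses the same DKO libraries as the one above, so their values are not independent.

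The comparison of CDK18KO with WT tumours sets tumours labelled as a knockout of Cdk18 alone against wild type. In edgeR 0 of the 10 genes were called, against 0.00714% of all genes, DESeq2 and limma voom also called 0 of the 10, and 0 had an unadjusted p under 0.05, against 16.9% of all genes in either direction (5.31% lower and 11.6% higher). None separated the groups without overlap (1.6% of all genes lower, 1.1% higher). The value was below 0 for 7 of 10 genes, against 50.6% of all genes, and the median was −0.14 for the 10 and −0.01 for all genes. Upper-quartile factors moved the median of all genes by −0.12, which put 10 of 10 below 0 and left 7 of 10 below that median. The 95% intervals reached at most 0.81 upward, for Atrip, and −1.10 downward, for Etaa1, and every one included 0. This comparison shares its WT libraries with DKO against WT.

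Libraries of 1 genotype differed among themselves. DKO 1 was the lowest of the 14 libraries for 6 genes, and DKO 1 and DKO 2 were below the median of the 14 libraries for all 10. DKO 3 was below it for 4 genes and DKO 4 for 6. CDK18KO 4 was below the median for 8 genes, CDK18KO 2 for 7 and CDK18KO 1 for 1. Among WT tumours the count ran between 1 gene, in WT 1, and 6 genes, in WT 2. The DKO tumours also differed in cell markers. In replicate order, summed hepatocyte markers were 9054, 15302, 1283 and 4112 CPM, and summed macrophage markers 584, 270, 70.2 and 70.6 CPM. The part of these differences in the levels of the 10 genes was not tested.

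**Figure D3:**
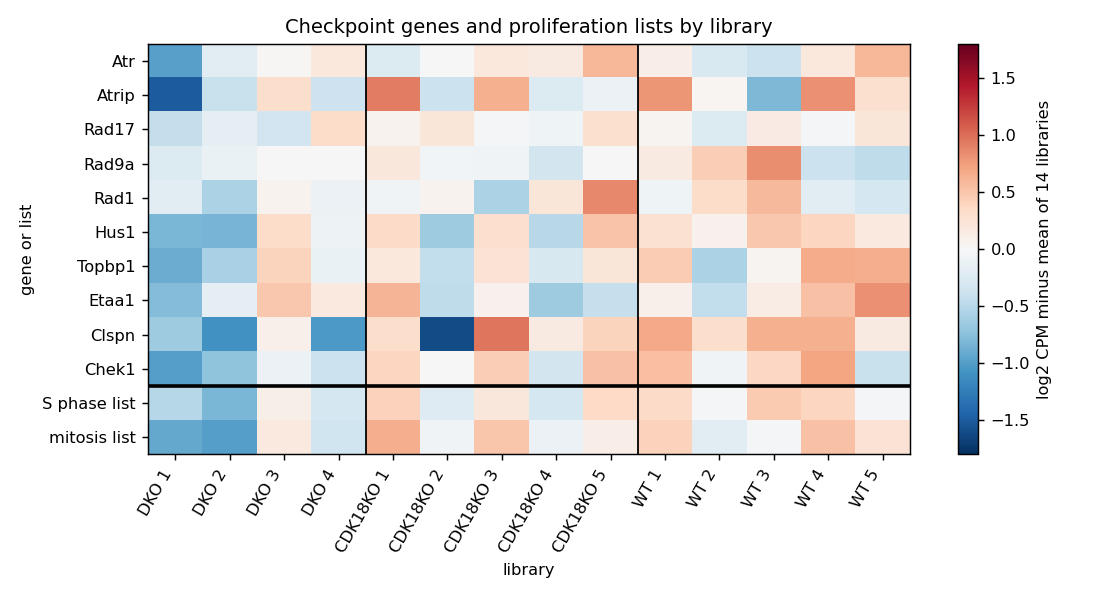
Log2 CPM of each gene minus its mean over the 14 libraries, with columns ordered DKO, CDK18KO and WT and rows for the 10 genes and for the summed S phase and mitosis lists. DKO 1 and DKO 2 are below the median of the 14 libraries in all 10 genes.

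Genes of DNA replication and of mitosis stood lower in some of the same DKO tumours. Over 40 such genes, 20 of S phase and 20 of mitosis, the summed level was 2452, 2176, 4608 and 3280 CPM in DKO tumours, 6143, 3803, 5478, 3664 and 4809 CPM in CDK18KO tumours and 5449, 3808, 4697, 5764 and 4619 CPM in WT tumours. DKO 1, DKO 2 and DKO 4 were below every other library, and DKO 3 lay within the range of the other genotypes. Of the 20 S phase genes 19 and of the 20 mitosis genes 20 had a value below 0 in DKO against WT tumours, with medians of −0.62 and −0.57, and with an unadjusted p under 0.05 for 6 and 5 of them, none past an adjusted p of 0.05 in edgeR. Clspn and Chek1 are known to be transcribed mainly in cycling cells, and the part of the share of cycling cells in their values was not tested. A smaller share of cycling cells and less transcript in each such cell cannot be told apart in these samples.

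**Figure D4:**
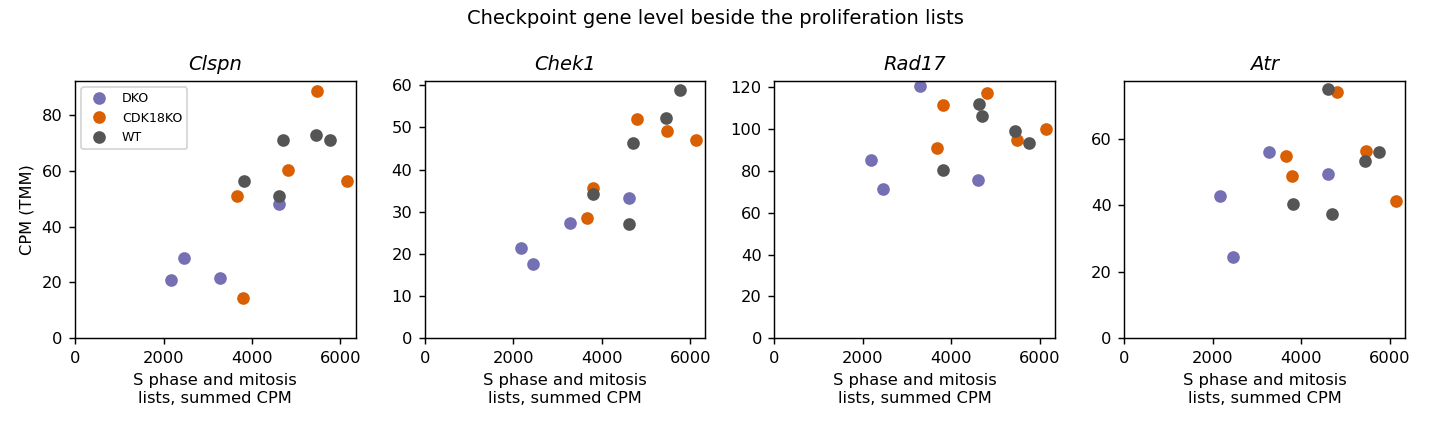
CPM of Clspn, Chek1, Rad17 and Atr (vertical axes) against the summed CPM of 40 S phase and mitosis genes (horizontal axis) in the 14 libraries, coloured by genotype. DKO 1 and DKO 2 sit at the low end of the horizontal axis, at 2452 and 2176 CPM, with Chek1 at 17.7 and 21.4 CPM.

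Counts were also set against those of the 40 genes in the same library. Chek1 came to 0.815 ± 0.123% of their counts in DKO tumours, 0.890 ± 0.130% in CDK18KO tumours and 0.890 ± 0.177% in WT tumours (SD, n = 4, 5 and 5). Clspn came to 0.961 ± 0.219% in DKO tumours, 1.11 ± 0.48% in CDK18KO tumours and 1.33 ± 0.17% in WT tumours (SD, n = 4, 5 and 5). By this measure both genes had their lowest mean in DKO tumours, and for both the groups overlapped.

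Rad17 had its highest mean in DKO tumours on this scale, at 3.04 ± 1.02% in DKO tumours, 2.25 ± 0.55% in CDK18KO tumours and 2.05 ± 0.32% in WT tumours, and Etaa1 was at 1.21 ± 0.27% in DKO tumours, 0.720 ± 0.136% in CDK18KO tumours and 0.944 ± 0.300% in WT tumours (SD, n = 4, 5 and 5). Atr, Rad9a, Rad1, Hus1 and Topbp1 also had their highest mean in DKO tumours on this scale, and Atrip had its highest in WT tumours. With all libraries scaled so that these 40 genes were level, the median of all genes moved by 0.70 for DKO against WT, 0.66 for DKO against CDK18KO and 0.05 for CDK18KO against WT. The direction then turned for 7 of the 10 genes in DKO against WT, and 3 stayed below 0, Atrip, Clspn and Chek1, at −0.08, −0.47 and −0.13 (edgeR adjusted p = 0.897, 0.367 and 0.747). Relative to the new median of all genes, 0.66, all 10 were still lower. In DKO against CDK18KO Etaa1 stood at 0.74 (unadjusted p = 0.0238, edgeR adjusted p = 0.189), and relative to the median of all genes, 0.64, 9 of the 10 were lower. The turned signs follow from a shift of all genes alike, and neither scaling gave a call among the 10. A scaling moves each gene and the median of all genes nearly together, so the place of the 10 below that median is no separate result.

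**Figure D5:**
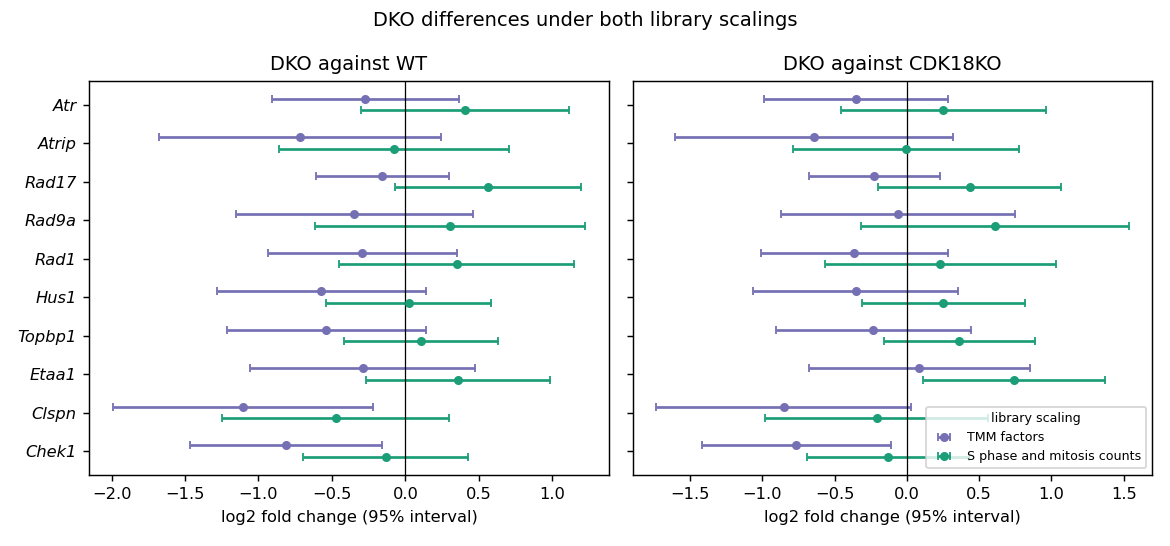
Log2 fold changes of the 10 genes under TMM scaling and under scaling to 40 S phase and mitosis genes, for DKO against WT and DKO against CDK18KO. All 10 are below 0 in DKO against WT under TMM, and 3 of them are below 0 under the other scaling.

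The rest of the pathway was described from 36 further genes in 6 lists, of which 35 passed the filter on low counts. In DKO against WT tumours edgeR called 0 of the 35, 5 were lower and 0 higher with an unadjusted p under 0.05, 30 had a value below 0, and the median was −0.51. In DKO against CDK18KO tumours it called 0, with 4 lower and 0 higher at an unadjusted p under 0.05, 33 below 0 and a median of −0.37, and in CDK18KO against WT tumours it called 0, with 0 lower and 1 higher at an unadjusted p under 0.05, 20 below 0 and a median of −0.06. The shares of all genes with an unadjusted p under 0.05 are those given for each comparison of the 10 genes. Without overlap between the groups, 2 of the 35 were lower in DKO against WT, Cdc25c and Fancd2, against 2.46% of all genes. In DKO against CDK18KO 1 of the 35 was, Cdc25a, against 0.722% of all genes. None of the 35 was higher without overlap in these comparisons (3.04% and 0.872% of all genes).

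The Cdc25 phosphatases, which Chk1 restrains and which release Cdk1 for mitosis, included the pathway genes with the smallest unadjusted p in DKO against WT tumours, Cdc25c, and in DKO against CDK18KO tumours, Cdc25a. Cdc25c was at 9.14, 6.20, 6.15 and 8.34 CPM in DKO tumours, at 13.4, 6.91, 13.4, 6.61 and 12.5 CPM in CDK18KO tumours and at 18.9, 12.2, 16.3, 17.0 and 17.7 CPM in WT tumours. DKO and WT tumours did not overlap, and the log2 fold change was −1.13 (SE 0.34, 95% interval −1.85 to −0.41; edgeR adjusted p = 0.146). Cdc25a was at 73.7, 72.1, 106 and 63.9 CPM in DKO tumours, at 132, 108, 194, 147 and 139 CPM in CDK18KO tumours and at 236, 125, 103, 185 and 102 CPM in WT tumours. All DKO values of Cdc25a lay below those of CDK18KO tumours, with a log2 fold change of −0.87 (SE 0.29, −1.50 to −0.24; edgeR adjusted p = 0.584), and the fold change against WT was −0.93 (SE 0.30, −1.56 to −0.30; edgeR adjusted p = 0.147). Cdc25b was at −0.73 in CDK18KO against WT tumours (−1.55 to 0.09; edgeR adjusted p = 0.351). DESeq2, run as an alternative, placed Cdc25c and Cdc25a under the threshold in DKO against WT, with adjusted p of 0.0247 and 0.0359, and no gene of the 10. These were 2 of the 35 pathway genes, in a fit that called 1033 of the 13997 genes kept by the filter. Scaled to the 40 genes, the values were −0.38 for Cdc25c and −0.21 for Cdc25a. Under TMM scaling 5 of the 7 genes in this list were below 0 in DKO against WT. The others were Wee1 at 0.56 and Pkmyt1 at 0.05 (edgeR adjusted p = 0.318 and 0.954). Wee1 stood above every WT tumour in 3 of the 4 DKO tumours. In the other lists Rad9b was at 0.67, Hltf at 0.55 and Rpa3 at 0.14 in that comparison (edgeR adjusted p = 0.647, 0.478 and 0.914).

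Among fork remodelling and Fanconi genes, Fancd2, which is loaded onto DNA after Atr signalling, was at 12.9, 7.89, 17.8 and 7.78 CPM in DKO tumours and at 21.1, 24.5, 28.8, 18.6 and 23.1 CPM in WT tumours. The groups did not overlap, and the log2 fold change was −0.99 (SE 0.40, 95% interval −1.85 to −0.13; edgeR adjusted p = 0.201). Hltf, a fork remodelling enzyme, had a positive value in CDK18KO against WT tumours. It was at 83.2, 96.3, 107, 182 and 55.6 CPM in CDK18KO tumours and at 66.0, 33.8, 26.5, 62.4 and 47.8 CPM in WT tumours, a log2 fold change of 1.15 (SE 0.39, 0.32 to 1.98; edgeR adjusted p = 0.177). It was the only one of the 35 with an unadjusted p under 0.05 in that comparison.

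Fork protection genes in DKO against WT tumours were at −0.93 for Wdhd1 and −0.78 for Timeless, whose product travels with Claspin at the fork (edgeR adjusted p = 0.209 and 0.278). RPA subunit Rpa2 was at −0.74 and Rpa1 at −0.11 in the same comparison (edgeR adjusted p = 0.307 and 0.875). Of the clamp partner and loader genes, Rhno1, which joins the ring to Topbp1, was at −0.64, and Rfc4 at −0.57 (edgeR adjusted p = 0.267 and 0.419). In the Atm branch, which answers double-strand breaks, the ubiquitin ligase gene Rnf168 was at −0.57 against WT and −0.54 against CDK18KO tumours (edgeR adjusted p = 0.201 and 0.787). Scaled to the 40 genes, the signs of Rpa1, Rhno1, Rfc4 and Rnf168 turned in DKO against WT tumours, as did that of Rnf168 against CDK18KO tumours. Hus1b, a paralog of Hus1, did not pass the filter on low counts.

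The genes whose log2 CPM followed Atr most closely over the 14 libraries, by Pearson r, were Ccdc18 (r = 0.879, Spearman rho = 0.851), R3hdm1 (0.847 and 0.771), ENSMUSG00000130845, for which no symbol was found, (0.847 and 0.868), Thoc7 (0.845 and 0.785) and Smc4 (0.832 and 0.780). Those nearest to Chek1 were Zmym1 (r = 0.920, rho = 0.886), Ranbp1 (0.919 and 0.881), Dctd (0.916 and 0.864), Ccnf (0.909 and 0.925) and Parp2 (0.895 and 0.837). Without the 2 libraries farthest from the median of the kinase gene, r lay between 0.549 and 0.783 for the Atr genes and between 0.838 and 0.964 for the Chek1 genes, over 12 libraries. The neighbours were picked from all other genes tested by this measure and the values share libraries and depth, so no p is given.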

How the data were processed

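RNA from 14 liver tumours (4 DKO, 5 CDK18KO, 5 WT) was made into libraries of mRNA 3′ ends with a 6-base molecular identifier, per the labels' protocols. The authors deposited 1 table of raw read counts per gene for all samples. The submitters' processing notes name the counter HTSeq 1.99.2, the aligner STAR 2.7.11a, UMI-tools 1.1.2, FastQC and DESeq2 1.32.0, with the builds mm10 and GRCh38; whether identifiers were collapsed, the strand setting and the annotation are not given in the sources used here. If copies were not collapsed, counts are not independent molecules.

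From the counts, edgeR 4.0.16 (R 4.3.3) fitted all 14 libraries in 1 quasi-likelihood model with group as the only term, TMM factors, a filter on low counts (filterByExpr, minimum count 10, which kept 99.0% of counts) and Benjamini-Hochberg adjustment over all genes kept, two-sided, with a call at an adjusted p under 0.05. The fit's common biological coefficient of variation came to 0.598. The steps were tested on simulated data, but the share of small differences recovered there is not given here. Alternatives used limma 3.58.1 voom, DESeq2 1.42.0, other scalings, filters and sample sets. Libraries differ by the mouse, per the series' design text. Positions are from GENCODE M21 (GRCm38) and promoters from RefSeq.

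The 10 genes and the pathway and marker lists were chosen with earlier results of these data known. Named were the 10 genes, Cdk16 and Cdk18, from each pathway list up to 2 genes with the smallest unadjusted p per comparison, and the 5 genes nearest to Atr and to Chek1. The pathway genes with a value above 0 in DKO against WT tumours were named as well.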

Additional observations from a re-analysis of the deposited data

How the results depend on the processing

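In every alternative run, 0 of the 10 checkpoint genes passed an adjusted p of 0.05 in any comparison. The smallest adjusted p of a member in DKO against WT was 0.174 in the main edgeR fit (Clspn). It was 0.0791 in DESeq2 (Chek1) and 0.0642 in limma voom (Clspn). Among the other edgeR runs it went down to 0.0798 (Clspn, without DKO 3). Leaving out each library in turn moved Clspn between −1.44 and −0.96 and Chek1 between −1.004 and −0.68 in that comparison. With the stricter filter (minimum count 30) Rad9a was not tested. With so few calls over all genes in most settings, a count of 0 of 10 says nothing of stability. The count of all genes called moved with the setting. For CDK18KO against WT it was 1, and it was 173 without a filter, 856 with DESeq2, 0 with edgeR's robust option, limma voom, scaling to S phase and mitosis genes, the 2 groups alone or without the 3 libraries above 100 CPM in Y-linked genes, and 0 to 74 with 1 library left out. For DKO against WT it was 1, and it was 252 without a filter, 1033 with DESeq2, 0 with limma voom, the list scaling, the 2 groups alone or without those libraries, and 0 to 1 with 1 library left out; DESeq2 called 2 pathway genes. For DKO against CDK18KO it was 0, and it was 42 without a filter, 84 with DESeq2, 55 with the list scaling and 0 to 2 with 1 library left out. The causes were not tested.

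Same-numbered libraries did not deviate together in every pair (r between −0.23 and 0.30 for CDK18KO and WT, −0.21 and 0.45 for DKO and WT, and −0.16 and 0.65 for DKO and CDK18KO). No r of differently numbered libraries was set beside these, so whether the numbers mark a pairing of samples was not tested. With the replicate number as a block 297, 438 and 0 genes were called for CDK18KO against WT, DKO against WT and DKO against CDK18KO, and 0 of the 10.

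Signs turned in these cases. With upper-quartile factors, which moved the median of all genes by −0.12 in both comparisons with WT, CDK18KO against WT gave −0.037 for Atr, −0.054 for Rad17 and −0.069 for Rad1. With the list scaling DKO against WT gave 0.41 for Atr, 0.56 for Rad17, 0.30 for Rad9a, 0.35 for Rad1, 0.022 for Hus1, 0.11 for Topbp1, 0.36 for Etaa1, 0.21 for Rnf168, 0.14 for Rnf8, 0.00031 for Rhno1, 0.028 for Rfc4, 0.027 for Smarcal1 and 0.55 for Rpa1. DKO against CDK18KO gave 0.25 for Atr, 0.43 for Rad17, 0.61 for Rad9a, 0.23 for Rad1, 0.25 for Hus1, 0.36 for Topbp1, 0.24 for Cdk16, 0.67 for Cdk18, 0.14 for Rnf168, 0.21 for Rfc5, 0.24 for Rfc3, 0.025 for Timeless, 0.36 for Wdhd1, 0.27 for Rpa2 and 0.49 for Rpa1. In that comparison DESeq2 gave 0.00195 for Cdk18, limma voom gave −0.0079 for Etaa1, and leaving out the libraries high in Y-linked genes gave 0.023 for Rad9a. With 1 library left out, CDK18KO against WT ran between −0.041 and 0.55 for Rpa3, −0.31 and 0.082 for Atrip, −0.19 and 0.079 for Chek1, −0.052 and 0.22 for Atr and −0.17 and 0.22 for Rad1. DKO against WT ran between −0.27 and 0.080 for Rpa1, and DKO against CDK18KO between −0.13 and 0.020 for Rad9a, −0.15 and 0.34 for Etaa1 and −0.67 and 0.27 for Cdk18. Depth limits Rad9a and Cdk18, with as few as 5 and 1 counts in a library.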
